A study of Mus musculus with 2 samples.

Results

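The genes described here mark the epithelium of the choroid plexus, and were read on 1 array of *lag* mutant and 1 array of wild-type cerebrum RNA at postnatal day 14 (P14). The list held 10 genes, *Ttr*, *Kl*, *Folr1*, *Kcnj13*, *Otx2*, *Clic6*, *Aqp1*, *Sostdc1*, *Enpp2* and *Igfbp2*, out of 18194 named genes, and a member was taken from the probe sets that the platform annotation paired with that gene alone. This gave 15 probe sets for 9 genes, and *Enpp2* was not analysed here. The mutant carried the spontaneous *lag* mutation, a splice-site change in *Kif14*, a kinesin gene that acts in cytokinesis. *lag* is recessive, arose on a mixed background of several inbred strains and was then backcrossed repeatedly to C57BL/6J. Whether the wild-type sample came from a littermate is not stated for the arrays. The number of mice pooled, if any, is given for neither genotype.

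The choroid plexus hangs into the ventricles of the brain. Its epithelium secretes cerebrospinal fluid by moving ions and water from blood to ventricle, and its tight junctions form the barrier between blood and cerebrospinal fluid. It also makes carriers and hormones for that fluid, among them transthyretin. The cells stand on a stroma with leaky capillaries, and they border the ciliated ependyma that lines the ventricles.

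Of the 9 measured choroid plexus genes, 6 had a higher signal in the *lag* mutant than in the wild type and 3 a lower one, with a median log2 ratio of 0.31 (*lag* mutant over wild type) against 0.01 over all 14030 measured genes. *Folr1*, which encodes the folate receptor of this epithelium, was 2.30-fold higher and was the only member past 2-fold. *Aqp1*, the water channel, was 1.63-fold higher. *Ttr*, *Clic6* and *Otx2* were lower by less than 1.10-fold in the probe set of highest signal, and for *Ttr* and *Clic6* the direction depended on the probe set. Each genotype is 1 array, so no test was possible, the spread between mice is unknown and every value below is a description of these 2 arrays. In RNA of a whole tissue piece, a different number of choroid plexus cells and a different amount of RNA per cell cannot be told apart.

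The authors' signals are linear intensities. A signal counted as above background here when it exceeded 46.6, the 95th percentile of 84 probe sets for smell, taste and pheromone receptors, and a gene was measured when its probe set of highest mean signal passed this level on at least 1 array. At least 2-fold higher were 0.82% of all measured genes and 1 of the 9 members, or 11.1%. At least 2-fold lower were 1.04% of all measured genes and 0 of the 9 members. At 1.5-fold, 4.39% of all measured genes were higher, as were *Folr1* and *Aqp1*, and 3.63% were lower, with no member among them. A higher signal of any size was found for 52.1% of all measured genes and for 66.7% of the members. With so few members, 1 gene moves their share past 2-fold by 11.1 percentage points.

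The choroid plexus genes were detected on both arrays. All 9 genes had a probe set above background in the *lag* mutant and in the wild type. Of the 15 probe sets, 14 were above it on both arrays. Detection is a low bar, since 14030 of 18194 named genes were measured, on at least 1 array. Some members are also expressed by other cells, so detection alone does not identify the cell type. The brightest *Ttr* probe set ranked 5 of 45101 in the *lag* mutant and 9 of 45101 in the wild type. The array-wide values were near each other: the median signal was 98.3 in the *lag* mutant and 105 in the wild type, and the *Actb* control probe sets, which track RNA quality, had a 3′ to 5′ signal ratio of 1.38 in the *lag* mutant and 1.55 in the wild type. The only probe set of *Kif14* lay under background on both arrays and does not check the genotype labels.

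The start sites of 4 members are shown because they are the regions through which the epithelium's own factors could act, and *Otx2* is one of those factors. RefSeq (GRCm38.p6) held 9 promoter windows for 5 of the members, each with 250 bases before and 50 after a start site: 4 for *Otx2*, 2 for *Igfbp2* and 1 each for *Kl*, *Kcnj13* and *Aqp1*. Capitals mark TAATCC or its reverse GGATTA, the letters bound by Otx-type homeodomain proteins, TATAAA or its reverse TTTATA, the TATA box, and GGGCGG or its reverse CCGCCC, the GC box.
Kl promoter, chr5:150952357-150952656, plus strand: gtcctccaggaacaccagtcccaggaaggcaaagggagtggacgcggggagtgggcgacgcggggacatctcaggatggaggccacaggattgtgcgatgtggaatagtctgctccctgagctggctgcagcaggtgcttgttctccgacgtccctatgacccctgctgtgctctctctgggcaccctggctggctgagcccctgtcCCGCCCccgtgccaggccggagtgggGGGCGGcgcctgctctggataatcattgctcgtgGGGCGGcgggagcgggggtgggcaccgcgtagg
Aqp1 promoter, chr6:55336049-55336348, plus strand: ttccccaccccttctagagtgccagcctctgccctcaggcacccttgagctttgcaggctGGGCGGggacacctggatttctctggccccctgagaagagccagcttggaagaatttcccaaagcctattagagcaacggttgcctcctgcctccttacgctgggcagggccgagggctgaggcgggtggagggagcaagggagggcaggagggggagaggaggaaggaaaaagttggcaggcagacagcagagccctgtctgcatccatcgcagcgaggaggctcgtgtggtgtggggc
Kcnj13 promoter, chr1:87394680-87394979, minus strand: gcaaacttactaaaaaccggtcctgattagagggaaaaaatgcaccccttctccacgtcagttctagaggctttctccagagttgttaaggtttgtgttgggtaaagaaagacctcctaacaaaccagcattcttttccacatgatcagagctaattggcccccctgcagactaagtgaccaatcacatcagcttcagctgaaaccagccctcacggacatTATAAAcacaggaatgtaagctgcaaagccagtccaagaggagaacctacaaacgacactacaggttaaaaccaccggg
Otx2 promoter, chr14:48665060-48665359, minus strand: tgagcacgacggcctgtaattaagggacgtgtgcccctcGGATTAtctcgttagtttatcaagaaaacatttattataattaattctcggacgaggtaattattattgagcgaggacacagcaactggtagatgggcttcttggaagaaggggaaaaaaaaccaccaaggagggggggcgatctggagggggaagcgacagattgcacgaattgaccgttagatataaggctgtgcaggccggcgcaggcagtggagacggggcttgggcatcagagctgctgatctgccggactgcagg
The *Kcnj13* window held a TATA box 29 bases before the start site and was 46.0% G and C. The *Kl* window held 3 GC boxes in 67.3% G and C, and the *Aqp1* window held 1 in 62.7%. The Otx letters stood in 1 of the 9 windows, that of the *Otx2* start site printed here, 211 bases before the start, against 7.06% of all 32851 windows in the table. GGGCGG was in 3 of the 9 windows against 35.7% of all, and TATAAA in 2 of the 9 against 13.6% of all. These are matches of letters within short windows and show no binding. The 9 windows are not independent, since 4 are those of *Otx2* and 2 of these overlap. Of the *Otx2* windows, the one with the Otx letters is printed.

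The first group of members binds or carries nutrients and hormones. *Folr1* (folate receptor alpha, which takes folate across the choroid plexus epithelium) had a signal of 474 in the *lag* mutant and 206 in the wild type, a log2 ratio of 1.20. Of all measured genes, 0.335% had a higher ratio. Its probe set was the only one for this gene, so no second probe set checks the value. *Kl* (α-klotho, the co-receptor of the hormone FGF23) had a signal of 111 in the *lag* mutant and 79.4 in the wild type, a log2 ratio of 0.48. A second *Kl* probe set lay under background on both arrays, at 18.01 in the *lag* mutant and 2.34 in the wild type, and gives no fold.

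*Ttr* (transthyretin, which carries thyroxine and retinol-binding protein) was the brightest member and had 4 probe sets that did not move together. The probe set of highest signal read 20819 in the *lag* mutant and 22753 in the wild type, 1.09-fold lower. Another read 17661 in the *lag* mutant and 18557 in the wild type. The remaining pair were higher, at 19662 and 14707 in the *lag* mutant against 16420 and 11520 in the wild type. So 2 probe sets were higher and 2 lower, by at most 0.35 on the log2 scale, and the mean of the 4 log2 ratios was 0.10. These signals are close to the top of the arrays, where the highest of any probe set was 23748 in the *lag* mutant and 26117 in the wild type. Whether such bright spots still follow the amount of RNA was not tested.

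**Figure D1:**
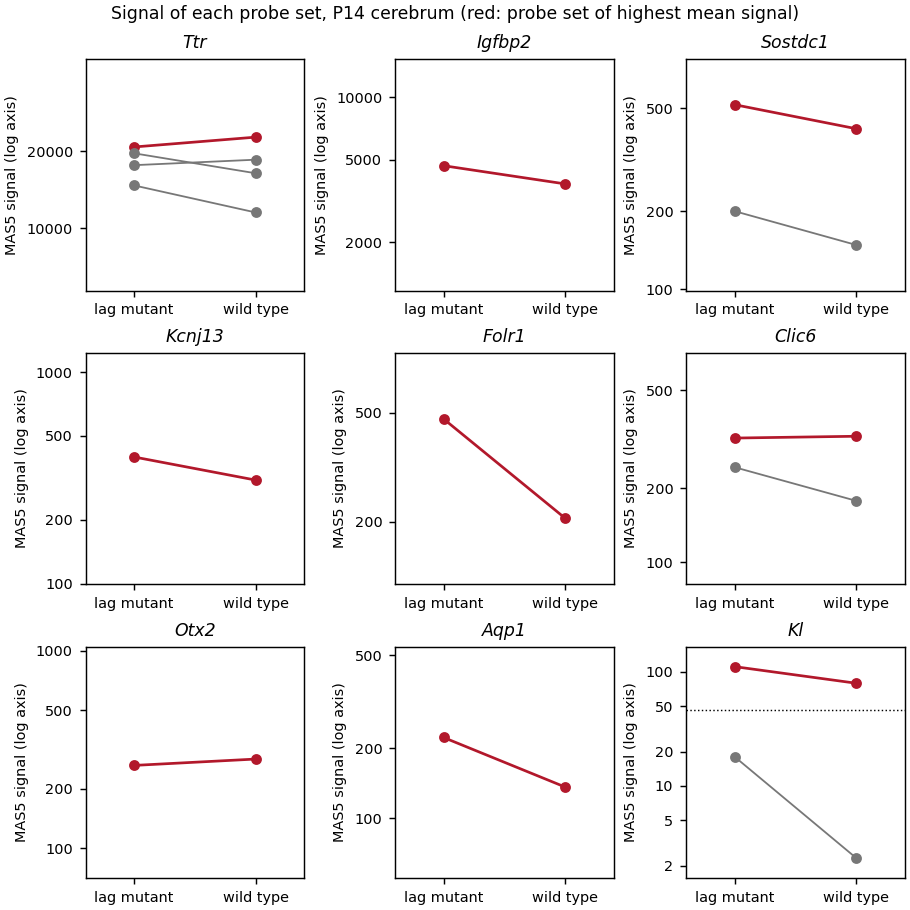
MAS5 signal (log axis) of each probe set of the 9 measured choroid plexus genes in the lag mutant and the wild type, 1 array each, with a line joining the 2 values of a probe set. Red marks the probe set of highest mean signal, grey the others, and the dotted line in the Kl panel the background level of 46.6; the steepest red line is that of Folr1, with 474 in the lag mutant against 206 in the wild type.

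The second group moves water and ions. *Aqp1* (aquaporin 1, in the apical membrane of the epithelium) had a signal of 222 in the *lag* mutant and 136 in the wild type, a log2 ratio of 0.70. *Kcnj13* (Kir7.1, an inwardly rectifying potassium channel) had a signal of 397 in the *lag* mutant and 309 in the wild type, 1.29-fold higher. *Clic6* (a member of the chloride intracellular channel family) gave different answers by probe set. The brighter one read 320 in the *lag* mutant and 325 in the wild type, and the other 243 in the *lag* mutant and 178 in the wild type, 1.37-fold higher.

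The third group acts in signalling. *Sostdc1*, a secreted antagonist of BMP and Wnt ligands, was higher in both of its probe sets. They read 517 and 200.5 in the *lag* mutant, against 418 and 148 in the wild type, 1.24-fold and 1.35-fold higher. *Igfbp2*, which binds insulin-like growth factors and is also made by astrocytes and meninges, read 4679 in the *lag* mutant and 3823 in the wild type, 1.22-fold higher. *Otx2*, a homeodomain transcription factor needed to form and keep the choroid plexus, read 263 in the *lag* mutant and 283 in the wild type, 1.08-fold lower. It had 1 probe set.

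Without replicates, 2 other spreads give a scale for these ratios. Probe sets of the same gene differed with a pooled SD of 0.32 on the log2 scale, over 6068 genes with at least 2 of them above background on both arrays. The ratios of *Folr1*, *Aqp1*, *Kl* and *Kcnj13* lay farther from 0 than this, and those of the other 5 members did not. Genes whose mean signal lay within 0.5 log2 units of a member's had an SD of their ratios of 0.38 around *Folr1* (2305 genes), 0.45 around *Aqp1* and 0.52 around *Kl*, the dimmest member. By that spread *Folr1*, *Aqp1*, *Igfbp2* and *Ttr* stood farther from 0 than 1 SD, *Ttr* as a decrease among only 58 genes that bright. That decrease is of the brightest *Ttr* probe set alone. Of the 4 *Ttr* probe sets 2 were higher in the *lag* mutant, and their mean log2 ratio over all 4 was 0.10. Neither spread replaces that between mice.

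**Figure D2:**
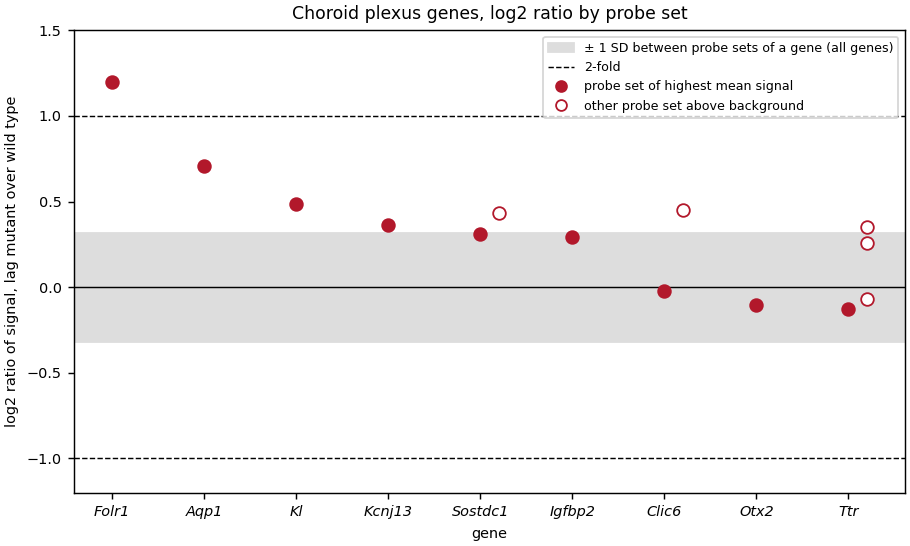
Log2 ratio, lag mutant over wild type, of each probe set above background of the 9 choroid plexus genes. Filled circles are the probe sets of highest mean signal, open circles the others, the grey band is 1 SD (0.32) between probe sets of a gene on either side of 0 and the dashed lines are 2-fold; Folr1 at 1.20 is the only gene past 2-fold, and the circles of Ttr lie on both sides of 0.

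A wider list of genes that the choroid plexus secretes, shows on its surface or uses as regulators was higher by a like amount at the median. Of its 27 genes, 22 were measured, 19 of them higher in the *lag* mutant and 3 lower, with a median log2 ratio of 0.42. The share that was higher was 86.4%, against 52.1% of all measured genes. The list was chosen with earlier results of these data known, so this share is a description only. Taking each gene's most decreased probe set gave 15 higher and 7 lower, and its most increased one 19 and 3. At least 2-fold higher were 3 of the 22, against 0.82% of all measured genes, and none was 2-fold lower. *F5*, the gene of coagulation factor V, read 159 in the *lag* mutant and 66.5 in the wild type, 2.40-fold higher, and both of its probe sets were higher. *Wfikkn2*, which encodes a secreted protease-inhibitor-like protein, read 144 in the *lag* mutant and 63.7 in the wild type, 2.25-fold higher. *Cldn3*, a tight junction claudin, read 94.8 in the *lag* mutant and 35.7 in the wild type, the second under background, so that it was at least 2.04-fold higher, and 3 of its 4 probe sets above background were higher. All 3 are dim genes, and with background set at the 99th percentile none passed 2-fold.

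The brighter genes of that list were higher by less. *Htr2c*, a serotonin receptor abundant in this epithelium and also found in neurons, read 4065 in the *lag* mutant and 3028 in the wild type, 1.34-fold higher. *Igf2*, a growth factor of choroid plexus and meninges, read 4236 in the *lag* mutant and 3569 in the wild type. *Spint2*, a membrane-bound protease inhibitor, read 1099 in the *lag* mutant and 826 in the wild type, while *Vat1l* read 2254 in the *lag* mutant and 2212 in the wild type. Genes of epithelial structure were dim and also higher. *Krt18* (a keratin) read 177 in the *lag* mutant and 93.2 in the wild type, a log2 ratio of 0.93. *Krt8* read 102 in the *lag* mutant and 77.4 in the wild type, a log2 ratio of 0.40. *Cldn1* read 154 in the *lag* mutant and 111 in the wild type, a log2 ratio of 0.47. *Cldn2* read 134 in the *lag* mutant and 100 in the wild type, a log2 ratio of 0.41. The homeobox gene *Msx1* read 367 in the *lag* mutant and 227 in the wild type, and *Ecrg4*, a secreted peptide precursor, 1106 in the *lag* mutant and 813 in the wild type. *Cdkn1c*, a cell cycle inhibitor, had the lowest ratio of the list, at 394 in the *lag* mutant and 510.0 in the wild type.

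**Figure D3:**
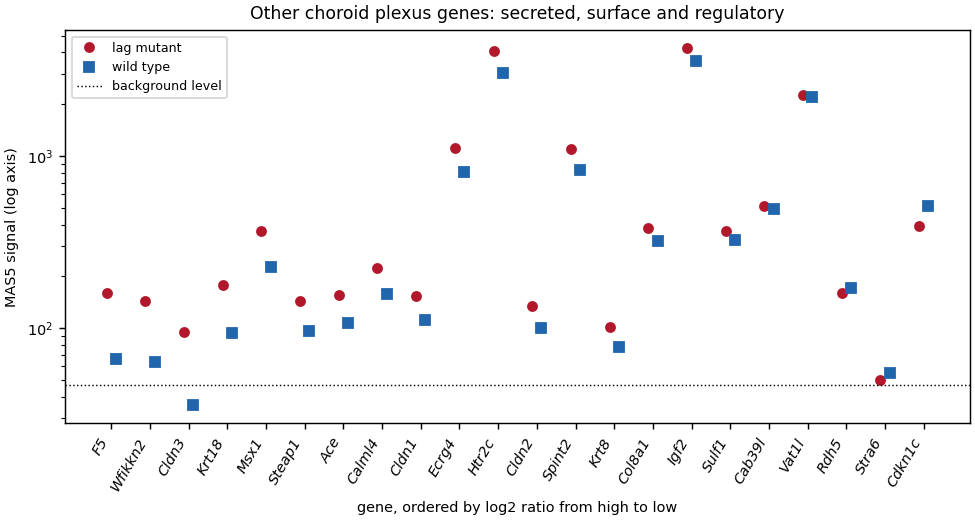
MAS5 signal (log axis) of the 22 measured genes of the list of secreted, surface and regulatory choroid plexus genes in the lag mutant (red circles) and the wild type (blue squares), ordered by log2 ratio from high to low, with the background level of 46.6 as a dotted line. In 19 genes the red circle lies above the blue square, and F5, at 159 in the lag mutant and 66.5 in the wild type, has the highest ratio.

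Genes of ion and solute transport were divided. Of 19 listed, 15 were measured, 10 of them higher and 5 lower in the *lag* mutant, none by 2-fold, and the median log2 ratio was 0.08. The brightest are also strongly expressed by other brain cells. *Atp1b1*, a subunit of the sodium pump that neurons share, read 18802 in the *lag* mutant and 21998 in the wild type. *Slc4a10*, a bicarbonate transporter of choroid plexus and neurons, read 5116 in the *lag* mutant and 4838 in the wild type. *Car2*, a carbonic anhydrase also made by oligodendrocytes, read 2082 in the *lag* mutant and 2340 in the wild type, and *Slc29a4*, a monoamine transporter, 2164 in the *lag* mutant and 1878 in the wild type. *Slc12a2*, the sodium, potassium and chloride cotransporter of the apical membrane, had the lowest ratio of the list, at 1655 in the *lag* mutant and 2137 in the wild type. Dimmer genes of the list went either way. The carbonic anhydrase gene *Car14* read 153 in the *lag* mutant and 167 in the wild type, *Car12* 186 in the *lag* mutant and 178 in the wild type, and the anion exchanger gene *Slc4a2* 286 in the *lag* mutant and 297 in the wild type. *Slc13a4*, a sulfate transporter, read 348 in the *lag* mutant and 236 in the wild type, *Slc22a8*, an organic anion transporter, 411 in the *lag* mutant and 319 in the wild type, and *Kcne2*, a potassium channel subunit, 176 in the *lag* mutant and 130 in the wild type. *Slc4a5*, the apical bicarbonate transporter, read 76.3 in the *lag* mutant and 43.0, under background, in the wild type, at least 1.64-fold higher.

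Receptors, ligands and transporters that work with the members did not share a direction. Of 34 measured genes of 39 listed, 18 were higher and 16 lower, none by 2-fold, with a median log2 ratio of 0.06 that ran between -0.10 and 0.15 over the processing settings. Beside *Folr1*, the other measured folate carriers were not higher by the same amount. *Slc46a1*, the proton-coupled folate transporter, read 149 in the *lag* mutant and 242 in the wild type, 1.63-fold lower, and *Slc19a1*, the reduced folate carrier, had a log2 ratio of 0.20. *Folr2*, the folate receptor of macrophages, read 39.7 in the *lag* mutant, under background, and 87.8 in the wild type, at least 1.89-fold lower. Beside *Aqp1*, *Aqp4*, the water channel of astrocytes and ependyma, read 4750 in the *lag* mutant and 5810 in the wild type, 1.22-fold lower, with all 3 of its probe sets lower. *Aqp9*, a channel for water and glycerol, read 82.9 in the *lag* mutant and 64.6 in the wild type, 1.28-fold higher.

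Among partners of the signalling members, *Bmp7*, a ligand of meninges and choroid plexus, read 494 in the *lag* mutant and 281 in the wild type, a log2 ratio of 0.81, and *Bmp4* read 262 in the *lag* mutant and 495 in the wild type, 1.89-fold lower. *Bmp2* and *Bmp6* had log2 ratios of -0.22 and 0.08. Of the relatives of *Clic6*, *Clic1* read 861 in the *lag* mutant and 643 in the wild type and *Clic4* 1509 in the *lag* mutant and 2220 in the wild type, while *Clic5* had a log2 ratio of 0.39. *Rbp4*, the retinol-binding protein that transthyretin carries, had a log2 ratio of 0.21. *Thra*, a thyroid hormone receptor, read 6026 in the *lag* mutant and 5412 in the wild type, *Plpp3*, which degrades lysophospholipids, 4590 in the *lag* mutant and 4341 in the wild type, and *Igfbp5* 3686 in the *lag* mutant and 3855 in the wild type. Of 3 *Thra* probe sets above background, only 1 was higher in the *lag* mutant. *Fgf23*, *Klb* and *Lrp5* lay under background on both arrays.

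Marker lists of neighbouring tissue were higher as well. Of 15 marker genes of meningeal fibroblasts, all measured, 14 were higher in the *lag* mutant and 1 lower, with a median log2 ratio of 0.39, and their summed signal was 15315 in the *lag* mutant and 10172 in the wild type. *Col3a1*, a fibrillar collagen gene, read 3779 in the *lag* mutant and 1999 in the wild type, *Dcn* (decorin) 2453 in the *lag* mutant and 1391 in the wild type, *Col1a2* 3555 in the *lag* mutant and 2711 in the wild type and *Slc6a20a*, an amino acid transporter, 962 in the *lag* mutant and 620.1 in the wild type. *Lum* (lumican) was 2.03-fold higher and the only 1 of the 15 past 2-fold. Of 14 measured ependymal genes, 12 were higher and 2 lower, with a median of 0.20 and a summed signal of 3149 in the *lag* mutant and 2743 in the wild type. *Tmem212* read 297 in the *lag* mutant and 189 in the wild type, *Mia* 322 in the *lag* mutant and 282 in the wild type, *Rsph1*, a ciliary gene, 249 in the *lag* mutant and 229 in the wild type, and *Ccdc39*, also ciliary, 486 in the *lag* mutant and 519.7 in the wild type. No marker of either list was at 0, and the ependymal gene *Spag17* was the only one under background on both arrays. Summed signals of the choroid plexus lists, as deposited, did not share a direction. The members, with *Ttr* as most of the sum, had 27802.7 in the *lag* mutant and 28333.5 in the wild type. Under quantile normalization the order turned, with 29125 in the *lag* mutant and 27139 in the wild type. It also turned under median scaling and with the mean over probe sets. The transport list had 32703 in the *lag* mutant and 35654 in the wild type. Most of that sum was *Atp1b1*, which neurons share, at 18802 in the *lag* mutant and 21998 in the wild type. The list of secreted, surface and regulatory genes had 16483 in the *lag* mutant and 13458 in the wild type. A different share of ventricle lining and meninges in the dissected piece cannot be told apart from genotype with 1 sample each, and its part in the ratios of the choroid plexus genes was not tested.

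Lists of other cells served as a further comparison. For 10 measured genes of brain endothelium the median log2 ratio was -0.07, between -0.16 and 0.08 over the processing settings, and none passed 2-fold, with *Itm2a* at 6445 in the *lag* mutant and 6639 in the wild type, *Slc2a1* at 2135 in the *lag* mutant and 2056 in the wild type, *Cldn5* at 1420 in the *lag* mutant and 1650 in the wild type and *Slco1a4* at 604 in the *lag* mutant and 577 in the wild type. Of 3 *Slc2a1* probe sets above background, only 1 was higher in the *lag* mutant. *Plvap*, the marker of fenestrated capillaries such as those of the choroid plexus, had the highest ratio of that list. It read 289 in the *lag* mutant and 227 in the wild type. Astrocyte genes, which bear on *Igfbp2*, had a median of -0.11 over 5 genes, between -0.32 and 0.22 over the processing settings, with *Slc1a2* at 11696 in the *lag* mutant and 13097 in the wild type. *Gja1*, *Slc1a3* and *Aldh1l1* had log2 ratios of -0.11, 0.11 and -0.32. *Gfap*, the intermediate filament gene of astrocytes, had the highest ratio of the 5. It read 274 in the *lag* mutant and 156 in the wild type, 1.76-fold higher. With each gene's most decreased probe set all 5 were lower, so the direction of *Gfap* depended on the probe set.

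The check of the tissue showed genes of cerebral cortex on both arrays, and genes of midbrain neurons at a higher signal in the wild type. Of 6 measured cortical neuron genes 4 were higher in the *lag* mutant, with a median of 0.39. *Neurod6* read 4557 in the *lag* mutant and 3338 in the wild type, and *Tbr1* 1639 in the *lag* mutant and 992 in the wild type. *Slc17a7* read 804 in the *lag* mutant and 642 in the wild type. *Camk2a* read 4249 in the *lag* mutant and 5042 in the wild type, but 3 of its 6 probe sets above background were higher. All 3 measured genes of midbrain neurons and all 4 of oligodendrocytes were at least 2-fold lower, among them *Slc6a3*, *Th*, *En2*, *Cnp*, *Mag*, *Mobp* and *Mog*, with medians of -1.44 and -3.25. Both medians rest on signals of the *lag* mutant that were raised to the background level, those of *En2* and *Mog*, and with no such level they were -1.03 for midbrain neurons, whose dimmer genes then also count, and -5.12 for oligodendrocytes. *Slc6a3* read 102 in the *lag* mutant and 402 in the wild type, and *Th* 132 in the *lag* mutant and 275 in the wild type. Under quantile normalization, median scaling or the 99th percentile background, 2 midbrain genes were at least 2-fold lower. The choroid plexus, meningeal, ependymal and cortical lists had medians above 0 in every setting, the midbrain and oligodendrocyte lists below 0, and the sign of the endothelial and astrocyte medians changed with the setting. Differences between lists were not tested.

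**Figure D4:**
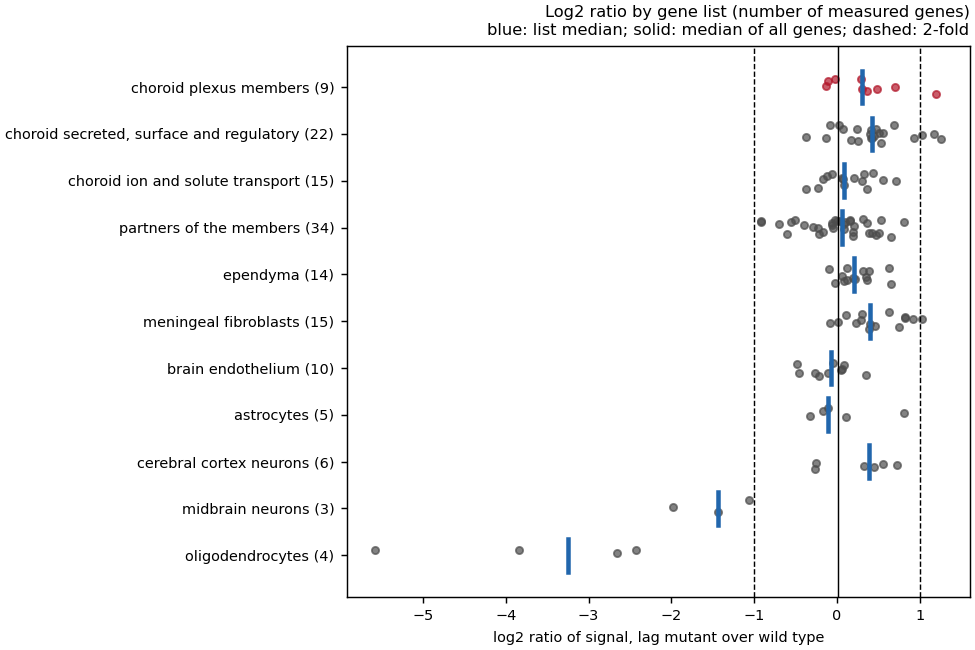
Log2 ratio, lag mutant over wild type, of each measured gene in 11 lists, 1 point per gene, with the number of measured genes in brackets. The blue bar is the list median, the solid line the median of all measured genes (0.01) and the dashed lines are 2-fold; the choroid plexus members (median 0.31), the secreted, surface and regulatory genes (0.42) and the meningeal genes (0.39) lie to the right, and oligodendrocyte genes (-3.25) far to the left.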

How the data were processed

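RNA of P14 cerebrum was read on Affymetrix whole-genome mouse arrays, 1 per genotype. The authors made the probe set intensities with MAS5, scaling each array globally, and they are on a linear scale with no detection call used here. The scaling target and annotation build are not given in the sources used here. Of 45101 probe sets, the 34958 that the annotation gives a single gene were named, and 932 with several genes and 9211 without one were not. Symbols were updated through RefSeq gene identifiers, of which 34754 matched.

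Log2 ratios of *lag* mutant over wild type were computed. A gene took its probe set of highest mean signal. For some named genes other probe sets above background went the other way, and not every case is given. A signal under the background level was raised to it, so that such a fold is a lower bound. The same level, the higher of both arrays' percentiles, was used on both arrays. Counts past 2-fold and medians describe these arrays, and the 2 arrays limit the precision. The members and lists were chosen with earlier results of these data known. Named were all members, genes of other lists past 2-fold and the 4 brightest of each; other list genes were named after their values were seen, and the TATA and GC boxes were added after the sequences were seen. Recovery of known folds was tested on simulated data. Alternatives changed the probe set, normalization, background level, fold and members. Python 3.11.15, numpy 2.4.6, pandas 2.3.3, scipy 1.17.1 and matplotlib 3.10.9 were used.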

Additional observations from a re-analysis of the deposited data

How the results depend on the processing

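No paired analysis was possible because there is a single array for the mutant and for the wild type, and no replicate could be left out for the same reason. The median log2 ratio of the choroid plexus members stayed above 0 in every setting tried, between 0.31 and 0.47. The other background levels do not check it. They changed no member but *Kl*, which fell to 0.314 at the 99th percentile and stayed above the median of 0.308. *Folr1* has 1 probe set, with both signals above every background level tried. So only the normalizations could move its log2 ratio of 1.20, and the other settings do not check it. It was 1.24 under quantile normalization and 1.29 under median scaling. The number of members past the fold was 2 at 1.5-fold and 0 at 4-fold, by construction of the threshold. *Ttr* had a log2 ratio of -0.13, but 0.04 under quantile normalization, 0.10 as the mean over probe sets and 0.35 with the probe set of largest increase. *Clic6*, at -0.02, turned to 0.0046 under quantile normalization, 0.06 under median scaling, 0.21 as the mean over probe sets and 0.45 with plain probe sets. *Otx2* stayed below 0 wherever it entered, between -0.11 and -0.02. With plain probe sets only, *Ttr*, *Otx2* and *Igfbp2* did not enter. Without *Igfbp2* and *Aqp1*, which other cells also express, the median was 0.31. It could not move, since these genes lie on either side of *Sostdc1*, whose ratio is the median. Of the 7 genes left, 4 were higher in the *lag* mutant and 3 lower. That is 57.1% higher, against 52.1% of all measured genes. *Enpp2*, named in the same alternative, was not analysed here.

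Counts over all genes depended more on the setting. Genes at least 2-fold higher and lower were 115 and 146; they were 146 and 135 under quantile normalization and 162 and 125 under median scaling, so that 44.1% of the changed genes were higher as deposited and 56.4% with that scaling. Taking each gene's most decreased probe set gave 316 lower genes, and its most increased one 198 higher genes, by choice of the extreme. At a 99th percentile background 58 were higher and 89 lower, and with none 1232 and 980, since dim genes then enter. At 1.5-fold 616 were higher and 509 lower, and at 4-fold 5 and 29.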
